A study of Mus musculus with 4 samples.

Results

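Bone morphogenetic protein (BMP) ligands, their secreted antagonists and the BMP-responsive genes *Id1* and *Smad6* were examined in mouse colon with or without azoxymethane (AOM), a procarcinogen given to induce colon tumors. The set held 9 genes, namely the ligands *Bmp2*, *Bmp4*, *Bmp5* and *Bmp7*, the antagonists *Grem1*, *Nog* and *Chrdl1*, and the intracellular responders *Id1* and *Smad6*. They were found by gene name on the arrays and were measured by 12 of 39423 probes, with 3 probes for *Chrdl1*, 2 for *Bmp4* and 1 for each of the others. All 12 are described, of which 11 were well above background on at least 1 array.

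BMPs are secreted dimers of the TGF-β superfamily that bind pairs of type I and type II serine/threonine kinase receptors, which phosphorylate SMAD proteins that then enter the nucleus with SMAD4. Antagonists such as gremlin and noggin bind the ligands outside the cell and keep them from the receptors. In the colon, BMP signaling is strongest towards the luminal surface, where it accompanies differentiation, and antagonists made by stromal and muscle cells around the crypt base keep it low near the stem cells.

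Each of the 4 groups was 1 pool of colon RNA on 1 array. The mice were male, 42 weeks old and of a B6.129 background at backcross generation 3, and were either *Pla2g3*+/+ or *Pla2g3*-/-, a germline null of the secreted phospholipase sPLA2-III, with both genotypes being littermates of intercrossed heterozygotes. AOM (10 mg/kg) or saline, the vehicle, was injected into the peritoneum weekly, 6 times in all, and the colon was taken 28 weeks after the last injection. The labels give 3 to 5 mice per pool and call the AOM tissue colorectal cancer, whereas the legend of the microarray plot describes 4 mice per pool and whole descending colon. With 1 array per group no difference could be tested, and the pooling hides the spread between mice.

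Before the results, the targeted gene was read on every array. The brightest of 3 *Pla2g3* probes had an intensity of 343 on the +/+ vehicle array and 426 on the array labelled *Pla2g3*-/- with vehicle, and 304 and 1632 after AOM. Its scaled signal was thus 1.23-fold and 6.01-fold higher on the arrays labelled *Pla2g3*-/-, and the other probes were also higher there. Whether the probes lie in the deleted part of the gene is not given in the sources used here, so every direction between genotypes below follows the array labels only.

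The level of a probe is given as its background-corrected intensity over the array's 75th percentile, which was 647.4 and 652.1 on the +/+ and -/- vehicle arrays and 1312 and 1171 after AOM. Between 64.8% and 69.4% of spots were well above background and none was saturated. The value after ± is the signal error of the scanner software, which starts from a preset 10% per spot and covers the spot but not the mice. A change of more than 2-fold is called a rise or a fall, and every ratio is on the log2 scale unless a fold is named. Where a probe was not above background on 1 array, its change is given as "at least", a bound that holds only under the scaling used here. Levels are compared between arrays for the same probe and never between probes.

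Between the genotypes, no probe of these genes passed 2-fold with vehicle and 7 of 11 did after AOM. Calls over all probes were also far fewer with vehicle. With vehicle the ratios of *Bmp2*, *Bmp7* and *Chrdl1* probe 2 were nevertheless larger than 2 signal errors. Among all probes with vehicle, 2.12% of 26553 were higher and 1.53% lower on the array labelled *Pla2g3*-/-. After AOM, 4 of the 11 probes were higher and 3 lower on the array labelled *Pla2g3*-/-, beside 14.1% and 12.1% of 28310 probes. Of the 4 higher probes, 3 belong to *Chrdl1* and are not independent of each other. By the brightest probe of each gene, 2 of 9 genes were higher (*Bmp2* and *Chrdl1*) and 3 lower (*Bmp4*, *Bmp5* and *Bmp7*), beside 15.1% and 12.9% of 17131 genes. With vehicle the corresponding shares were 1.92% and 1.32% of 16341 genes.

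Against vehicle, the AOM array of *Pla2g3*+/+ mice showed 4 probes that rose and 4 that fell, beside 14.9% and 21.7% of 28441 probes. By gene, *Bmp4*, *Bmp5*, *Bmp7* and *Smad6* rose and *Nog* and *Chrdl1* fell, beside 15.1% and 22.4% of 17214 genes. For the arrays labelled *Pla2g3*-/-, 4 probes rose and 2 fell with AOM, beside 11.2% and 15.5% of 26919 probes. By gene, *Bmp2* and *Chrdl1* rose and *Bmp7* and *Nog* fell, beside 9.68% and 15% of 16457 genes. The 4 comparisons share arrays, since the +/+ AOM array enters the comparison of genotypes as well as that of treatments, so they do not bear on each other independently. The plot of each probe on the 4 arrays shows the levels behind these ratios.

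**Figure D1:**
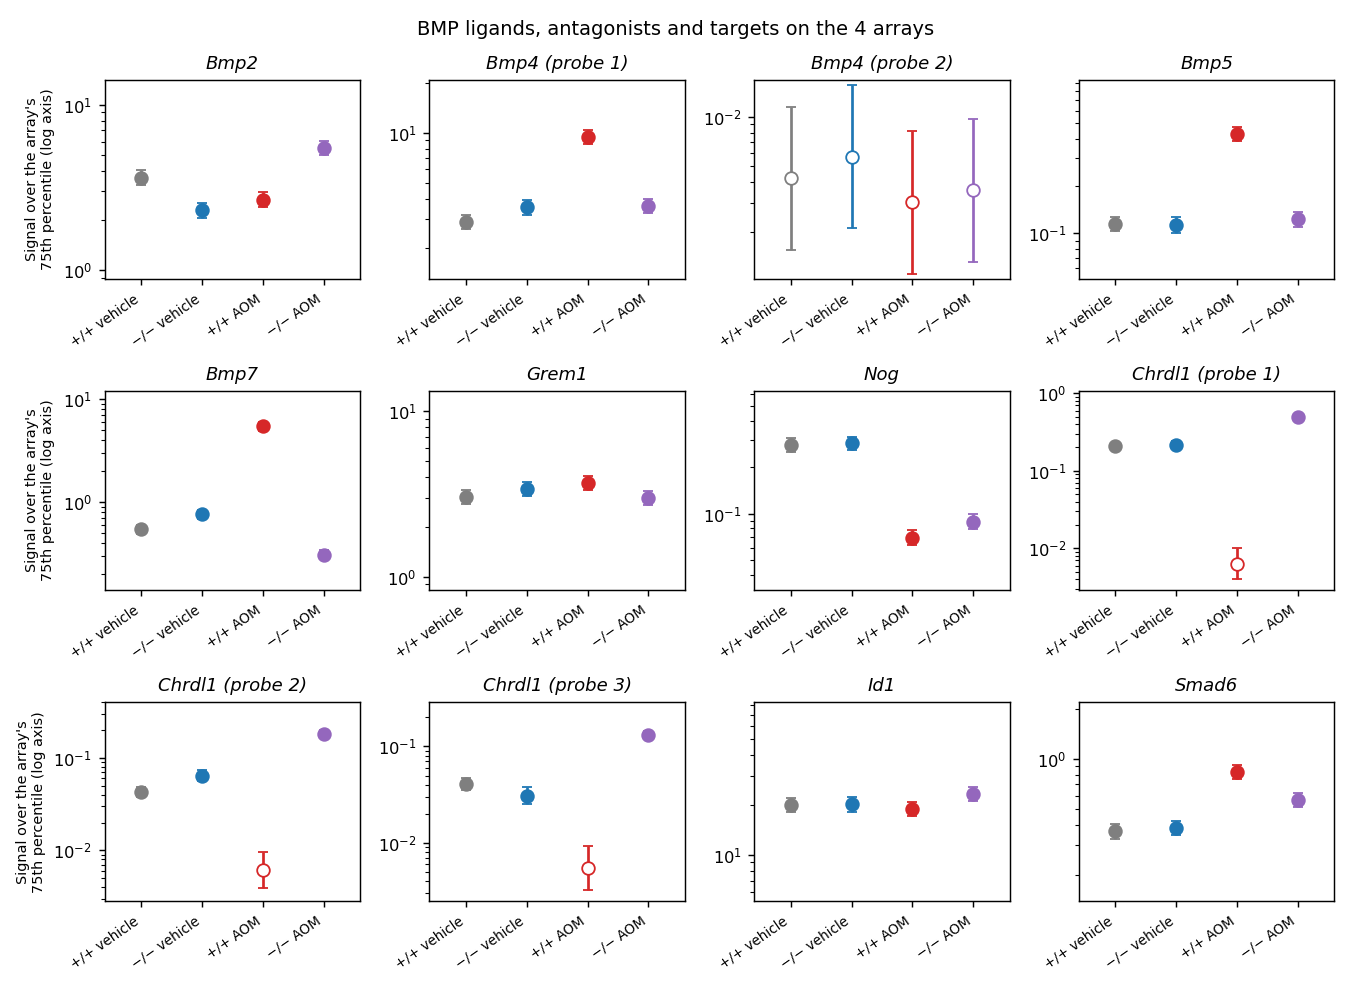
Level of each of the 12 probes on the 4 arrays, as signal over the 75th percentile of the array on a log axis, with 1 point per array and the signal error of the scanner software as bars. Open points were not above background. *Bmp4* (probe 1), *Bmp5* and *Bmp7* stand highest on the +/+ AOM array, where all 3 *Chrdl1* probes are not above background, whereas *Grem1* and *Id1* lie close together on all 4 arrays.

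*Bmp7*, a ligand that signals through BMP type I receptors and is best known for its part in kidney and eye development, differed most among the ligands. Its probe (mm9 chr2:172695203-172695262, minus strand) had intensities of 354 and 497 on the +/+ and -/- vehicle arrays, 7147 on the +/+ AOM array and 359 on the AOM array labelled *Pla2g3*-/-. These were 0.547, 0.761, 5.45 and 0.307 times the 75th percentile. The +/+ AOM array thus stood far above the other 3 arrays, and all neighbours in the order of levels differed by more than 2 signal errors. *Bmp7* rose 9.97-fold with AOM in *Pla2g3*+/+ (log2 ratio 3.32 ± 0.20) and fell 2.48-fold on the arrays labelled *Pla2g3*-/- (-1.31 ± 0.20). Between the genotypes it was 1.39-fold higher with vehicle (0.48 ± 0.20) and 17.8-fold lower after AOM (-4.15 ± 0.20) on the array labelled *Pla2g3*-/-. Without scaling between arrays the fall with AOM was -0.47, no longer past 2-fold.

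A list of 10 genes taken as Wnt targets in colon tumors moved the same way as *Bmp7* on the +/+ AOM array. Their summed level was 5.03 and 5.27 on the vehicle arrays, 63.8 on the +/+ AOM array and 4.31 on the AOM array labelled *Pla2g3*-/-, and 10 of 10 rose with AOM in *Pla2g3*+/+. *Prox1* was not above background on the other 3 arrays and *Sp5* on the AOM array labelled *Pla2g3*-/-. With AOM on the arrays labelled *Pla2g3*-/-, 3 of the 9 listed genes with a ratio fell and 2 had a ratio above 0. Their median there was -0.22, whereas *Bmp7* fell past 2-fold. The part of this list in the result for *Bmp7* was not tested. The RNA came from tissue and not from separated cells. Fewer cells of a type and less RNA per cell therefore cannot be told apart for any gene here. The labels and the legend describe the AOM tissue differently, so a difference in the tissue taken cannot be told apart from AOM or genotype.

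*Bmp4*, the ligand made by mesenchymal cells under the colonic epithelium, has a pair of probes on chromosome 14 that did not agree. The first 30 bases of each 60-base probe are shown, 5′ to 3′, because the probes differ in base composition and in signal (mm9, minus strand, chr14:47003391-47003450 for probe 1 and chr14:47003198-47003257 for probe 2).
Bmp4 probe 1: caaccacctacacataccacacaaactgct
Bmp4 probe 2: gacaaatatatttataactacatattaaaa
Probe 2, with a GC content of 15% against 38.3% for probe 1, was not above background on any array, with intensities between 2.74 and 4.19. It gives no ratio. Probe 1 read 2.89, 3.54, 9.44 and 3.62 times the 75th percentile on the +/+ vehicle, -/- vehicle, +/+ AOM and -/- AOM arrays, with only the +/+ AOM array set apart by more than 2 signal errors from its neighbour. *Bmp4* by probe 1 rose 3.27-fold with AOM in *Pla2g3*+/+ (1.71 ± 0.20), was 1.02-fold higher with AOM on the arrays labelled *Pla2g3*-/- (0.03 ± 0.20) and was 2.61-fold lower on the array labelled *Pla2g3*-/- after AOM (-1.38 ± 0.20). With vehicle the genotypes differed by 0.29 ± 0.20.

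*Bmp5*, a ligand of the same subgroup as *Bmp7* that is found in gut mesenchyme, also stood highest on the +/+ AOM array (mm9 chr9:75746444-75746503, plus strand). It read 0.115 and 0.113 times the 75th percentile on the +/+ and -/- vehicle arrays, 0.430 on the +/+ AOM array and 0.123 on the AOM array labelled *Pla2g3*-/-. The last of these and the vehicle arrays lay within 2 signal errors of each other. *Bmp5* rose 3.75-fold with AOM in *Pla2g3*+/+ (1.91 ± 0.21) and had a log2 ratio of 0.12 ± 0.22 on the arrays labelled *Pla2g3*-/-. After AOM it was 3.50-fold lower on the array labelled *Pla2g3*-/- (-1.81 ± 0.21), against -0.02 ± 0.22 with vehicle.

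*Bmp2*, a ligand of the mature colonocytes near the lumen, had another order (mm9 chr2:133388260-133388319, plus strand). Its level was 3.63 on the +/+ vehicle array, 2.30 on the -/- vehicle array, 2.67 on the +/+ AOM array and 5.46 on the AOM array labelled *Pla2g3*-/-, the highest of the 4. The +/+ AOM and -/- vehicle arrays lay within 2 signal errors of each other. *Bmp2* rose 2.37-fold with AOM on the arrays labelled *Pla2g3*-/- (1.25 ± 0.20), whereas its ratio in *Pla2g3*+/+ was -0.44 ± 0.20. Between the genotypes it was 2.04-fold higher after AOM on the array labelled *Pla2g3*-/- (1.03 ± 0.20), just past the threshold, and 1.58-fold lower with vehicle (-0.66 ± 0.20). The former was 0.87 without scaling and 0.98 with another background correction (normexp), both under 2-fold. The ratio in *Pla2g3*+/+ turned to 0.58 without scaling.

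Markers of surface colonocytes and of another epithelium were read beside *Bmp2*. The summed level of 8 such genes was 686 and 717 on the vehicle arrays, 53.1 on the +/+ AOM array and 385 on the AOM array labelled *Pla2g3*-/-, with 8 of 8 lower with AOM in *Pla2g3*+/+ and none below background. Markers of stratified squamous epithelium, 8 in all, summed to 5.18, 4.80 and 6.26 on the first 3 arrays and to 23.2 on the AOM array labelled *Pla2g3*-/-, where *Bmp2* was highest and where *Krt4*, *Dsg3* and *Sprr3* were not above background. *Krt5* alone gave 15.2 of the 23.2. Of the 6 genes with a ratio of AOM to vehicle on the arrays labelled *Pla2g3*-/-, 3 rose and 1 fell. In *Pla2g3*+/+, 3 of the 7 with a ratio also rose with AOM and 2 fell. *Krt4*, *Krt6a* and *Sprr3* were not above background on either vehicle array, so the rise of *Krt6a* is a bound in both genotypes. The part of either list in the result for *Bmp2* was not tested.

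**Figure D2:**
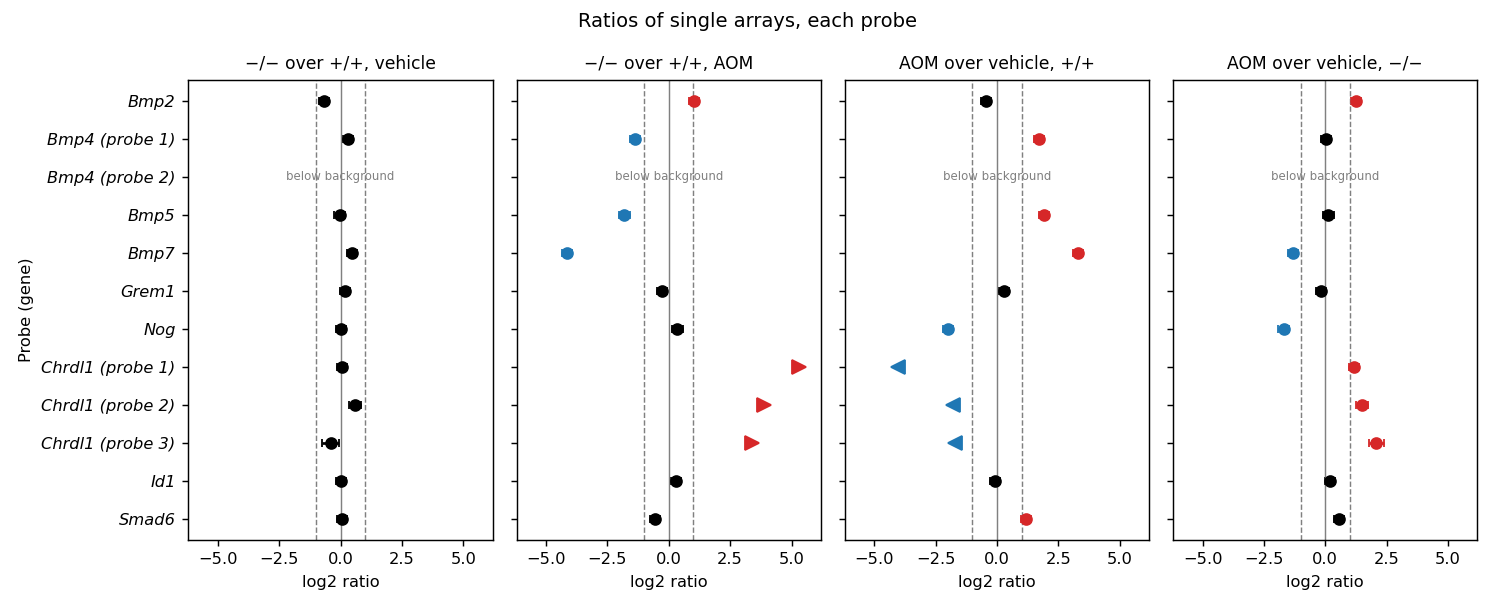
Log2 ratio of each probe in the 4 comparisons of single arrays, with the signal error as bars and 2-fold as dashed lines. Red marks a rise, blue a fall, and triangles are bounds that point towards the larger change. No probe passes 2-fold between the genotypes with vehicle, and after AOM the ligands *Bmp4*, *Bmp5* and *Bmp7* are lower and *Bmp2* and the 3 *Chrdl1* probes higher on the array labelled *Pla2g3*-/-.

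Among the antagonists, *Chrdl1* showed the widest range. Chordin-like 1 is a secreted protein with chordin-type cysteine-rich repeats that binds BMP4 and other ligands. Its probes lie at different places of the same gene on the X chromosome (mm9, minus strand, chrX:139732534-139732593, chrX:139720248-139720307 and chrX:139725644-139725703 for probes 1, 2 and 3). Probe 1 is annotated to another RefSeq transcript than probes 2 and 3. The first 30 of the 60 bases of each are shown because all 3 had the same highest and lowest array at different sites.
Chrdl1 probe 1: aaattcaggtggaagcatgcttattagggg
Chrdl1 probe 2: cacaggacatgtacccaaatatggtactta
Chrdl1 probe 3: agaagatttccaagaggatgtttggggagc
Probe 1 had intensities of 134 and 141 on the +/+ and -/- vehicle arrays, 8.33 on the +/+ AOM array and 572 on the AOM array labelled *Pla2g3*-/-. Probe 2 read 27.8, 42.0, 8.14 and 213.8 and probe 3 read 26.5, 20.2, 7.18 and 153.7 on the same arrays. All 3 probes were not above background on the +/+ AOM array and highest on the AOM array labelled *Pla2g3*-/-.

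Each *Chrdl1* probe fell with AOM in *Pla2g3*+/+, by at least 16.6-fold, 3.42-fold and 3.26-fold for probes 1, 2 and 3. On the arrays labelled *Pla2g3*-/- they rose 2.27-fold (1.18 ± 0.21), 2.83-fold (1.5 ± 0.23) and 4.24-fold (2.08 ± 0.32). After AOM they were at least 39.0-fold, 14.6-fold and 10.5-fold higher on the array labelled *Pla2g3*-/-. With vehicle the ratios between genotypes were 0.05 ± 0.21, 0.59 ± 0.26 and -0.40 ± 0.34, which differ in sign. The rise on the arrays labelled *Pla2g3*-/- dropped to 0.84, 0.81 and 0.82 with normexp, under 2-fold. The fall in *Pla2g3*+/+ was under 2-fold for probes 2 and 3 with normexp (-0.44 and -0.40) and without scaling (-0.76 and -0.69).

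Smooth muscle genes fell with *Chrdl1* on the +/+ AOM array. The 10 markers, from *Acta2* to *Mylk*, summed to 526 and 551 on the vehicle arrays, 31.7 on the +/+ AOM array and 510 on the AOM array labelled *Pla2g3*-/-, none of them below background on any array. With AOM, 10 of 10 fell in *Pla2g3*+/+ and 1 of 10 rose on the arrays labelled *Pla2g3*-/-, where the median ratio was 0.06. There 5 of the 10 had a ratio above 0 and 5 below, with a range from -0.38 to 1.88. Genes of surface colonocytes (8 of 8) and of enteric neurons and glia (7 of 9) also fell with AOM in *Pla2g3*+/+. The part of muscle or of these other lists in the result for *Chrdl1* was not tested.

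*Nog* encodes noggin, which binds BMP ligands with high affinity and is made in the colon outside the epithelium. Its probe (mm9 chr11:89162849-89162908, minus strand) read 0.280 and 0.287 times the 75th percentile on the +/+ and -/- vehicle arrays and 0.0698 and 0.0885 after AOM. The vehicle arrays lay within 2 signal errors of each other, as did the AOM arrays, and the pairs were apart. *Nog* fell 4.01-fold with AOM in *Pla2g3*+/+ (-2.0 ± 0.22) and 3.24-fold on the arrays labelled *Pla2g3*-/- (-1.69 ± 0.22), and it alone of the 9 genes fell in both genotypes. Between the genotypes it differed by 0.03 ± 0.21 with vehicle and 0.34 ± 0.22 after AOM. Without scaling the falls were -0.99 and -0.85, both short of 2-fold. The 9 markers of enteric neurons and glia summed to 3.40 and 3.60 with vehicle and to 0.973 and 2.14 after AOM on the +/+ array and the array labelled *Pla2g3*-/-, with 7 and 3 of the 9 past 2-fold lower, and 2 of the 9 were not above background on the +/+ AOM array. Their part in the result for *Nog* was not tested.

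*Grem1*, an antagonist made by the stromal and muscle cells at the crypt base, did not pass 2-fold in any comparison. The probe (mm9 chr2:113589227-113589286, minus strand) read 3.02 and 3.39 on the +/+ and -/- vehicle arrays, 3.66 on the +/+ AOM array and 2.99 on the AOM array labelled *Pla2g3*-/-. All neighbours in this order lay within 2 signal errors. Its ratios were 0.17 and -0.29 between the genotypes with vehicle and after AOM, and 0.28 and -0.18 between treatments in *Pla2g3*+/+ and on the arrays labelled *Pla2g3*-/-, each ± 0.20. Without scaling the ratio in *Pla2g3*+/+ was 1.30, past 2-fold, and that on the arrays labelled *Pla2g3*-/- turned to 0.67.

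Of the responders, *Id1*, an inhibitor of basic helix-loop-helix transcription factors whose gene is a direct target of BMP SMADs, had nearly the same scaled level on all arrays (mm9 chr2:152563083-152563142, plus strand). It read 20.0, 20.2, 18.9 and 23.3 on the +/+ vehicle, -/- vehicle, +/+ AOM and -/- AOM arrays, with all neighbours within 2 signal errors. The ratios were 0.01 and 0.30 between genotypes with vehicle and after AOM and -0.08 and 0.21 between treatments in *Pla2g3*+/+ and on the arrays labelled *Pla2g3*-/-, each ± 0.20. Without scaling the last of these was 1.05, past 2-fold, and the ratio in *Pla2g3*+/+ turned to 0.93, against 0.57 with quantile normalization and 0.52 with normexp.

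*Smad6*, an inhibitory SMAD that BMP signaling induces and that blocks the receptors in turn, was higher on the AOM arrays (mm9 chr9:63800980-63801039, minus strand). It read 0.365 and 0.382 on the +/+ and -/- vehicle arrays, 0.834 on the +/+ AOM array and 0.564 on the AOM array labelled *Pla2g3*-/-, and only the vehicle arrays lay within 2 signal errors of each other. *Smad6* rose 2.29-fold with AOM in *Pla2g3*+/+ (1.19 ± 0.20) and was 1.48-fold higher on the arrays labelled *Pla2g3*-/- (0.56 ± 0.20), short of the threshold. After AOM it was 1.48-fold lower on the array labelled *Pla2g3*-/- (-0.56 ± 0.20). The first ratio was 0.91 with normexp and the second 1.41 without scaling, so both calls changed with the processing.

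The gap between the genotypes in their response to AOM was computed as the ratio on the arrays labelled *Pla2g3*-/- minus that in *Pla2g3*+/+, with no test. It was -4.63 for *Bmp7*, -1.78 for *Bmp5* and -1.68 for *Bmp4*, against 1.69 for *Bmp2* and at least 5.23, 3.28 and 3.79 for the *Chrdl1* probes. It was -0.63 for *Smad6*, -0.46 for *Grem1*, 0.31 for *Nog* and 0.29 for *Id1*. The ligands therefore fell on different sides, with *Bmp2* opposite to the others.

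The regions upstream of *Bmp4*, *Bmp5* and *Smad6*, which rose in *Pla2g3*+/+ with AOM, are shown beside that of *Grem1*, which did not pass 2-fold. *Bmp7*, which also rose, had no matched promoter and is not shown. RefSeq promoters were matched for 4 of the 9 genes, and the 250 bases before each start site are printed 5′ to 3′ on the gene's strand (GRCm38.p6, a later build than that of the probes). Capitals mark matches, on either strand, to CAGAC, the short SMAD-binding element, or GGCGCC, a GC-rich element of BMP-responsive SMADs.
Bmp4, chr14:46390670-46390919, minus strand: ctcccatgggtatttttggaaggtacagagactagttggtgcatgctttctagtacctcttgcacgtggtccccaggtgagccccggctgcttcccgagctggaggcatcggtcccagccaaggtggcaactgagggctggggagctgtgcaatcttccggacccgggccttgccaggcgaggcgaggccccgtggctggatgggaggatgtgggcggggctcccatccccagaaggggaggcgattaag
Bmp5, chr9:75775115-75775364, plus strand: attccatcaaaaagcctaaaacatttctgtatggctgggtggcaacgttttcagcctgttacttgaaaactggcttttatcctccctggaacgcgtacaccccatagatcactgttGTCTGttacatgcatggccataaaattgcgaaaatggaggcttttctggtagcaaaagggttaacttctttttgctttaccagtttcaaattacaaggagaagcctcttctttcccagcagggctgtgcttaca
Smad6, chr9:64022060-64022309, minus strand: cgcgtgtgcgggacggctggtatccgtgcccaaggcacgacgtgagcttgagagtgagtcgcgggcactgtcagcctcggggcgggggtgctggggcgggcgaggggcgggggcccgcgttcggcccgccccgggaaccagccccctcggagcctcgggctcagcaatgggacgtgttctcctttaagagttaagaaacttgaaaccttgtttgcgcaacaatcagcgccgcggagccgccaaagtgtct
Grem1, chr2:113758649-113758898, minus strand: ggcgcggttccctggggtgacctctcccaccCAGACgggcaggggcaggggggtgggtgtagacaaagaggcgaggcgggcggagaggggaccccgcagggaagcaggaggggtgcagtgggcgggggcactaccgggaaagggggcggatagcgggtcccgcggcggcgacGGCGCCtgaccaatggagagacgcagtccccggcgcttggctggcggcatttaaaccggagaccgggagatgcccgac
CAGAC was found in the windows of *Bmp5* and *Grem1* and in 42.2% of 32851 promoter windows. GGCGCC was found in that of *Grem1* and in 9.59% of all windows. CTTTGA, a core of TCF/LEF sites that does not overlap either, was in none of the 4 and in 13.8% of all windows. These letters are a description of the windows and not evidence of binding.

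The rest of the pathway was read from 52 other genes, all on the array, by the brightest probe of each. With vehicle, 46 had a ratio between the genotypes and only *Bmp15* passed 2-fold (a fall of at least 2.48 on the log2 scale). After AOM, 8 of 45 were higher and 8 lower on the array labelled *Pla2g3*-/- (17.8% each, beside 15.1% and 12.9% of all genes), with a median ratio of -0.05 beside 0.03 over all genes. With AOM in *Pla2g3*+/+, 13 of 46 rose and 9 fell (28.3% and 19.6%, beside 15.1% and 22.4%), with a median of -0.05 beside -0.17 over all genes. On the arrays labelled *Pla2g3*-/-, 1 of 45 rose and 2 fell (2.22% and 4.44%, beside 9.68% and 15%), with a median of 0.24 beside -0.08. The same shares of all genes are the background of the counts of single lists below. *Gdf2*, *Gdf6*, *Sost*, *Cer1*, *Bmpr1b* and *Bambi* were not above background on any array.

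Other genes on the list of ligands moved both ways. Of 9 with a ratio in *Pla2g3*+/+, *Bmp1* among them, 3 rose and 3 fell with AOM. The falls of *Bmp10* and *Bmp15* are bounds. *Bmp3*, a ligand that opposes other BMPs, read 0.846, 0.561, 0.0523 and 0.701 on the +/+ vehicle, -/- vehicle, +/+ AOM and -/- AOM arrays, and its ratio of AOM to vehicle was -4.02 in *Pla2g3*+/+ and 0.32 on the arrays labelled *Pla2g3*-/-. *Bmp8b* read 0.137, 0.127, 0.322 and 0.111, with ratios of 1.23 and -0.19. *Bmp1*, despite its name a metalloprotease that cleaves procollagen and chordin, read 0.877, 0.936, 2.99 and 1.07, with ratios of 1.77 and 0.20. *Bmp3* was thus lowest on the array where *Bmp4*, *Bmp5* and *Bmp7* were highest.

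Of 11 other antagonists, 3 rose and 3 fell with AOM in *Pla2g3*+/+, against 0 and 1 on the arrays labelled *Pla2g3*-/-. *Fst*, whose product follistatin binds activins and some BMPs, read 0.280, 0.469, 2.15 and 0.213 on the 4 arrays in the same order and rose 7.67-fold with AOM in *Pla2g3*+/+. *Bmper*, an extracellular BMP binder of endothelial cells, read 0.105, 0.109, 0.591 and 0.0709 and rose 5.65-fold. The antagonists therefore divided, with *Chrdl1* and *Nog* lower and *Fst* and *Bmper* higher on the +/+ AOM array than on its vehicle array.

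Of 9 receptors and co-receptors with a ratio, 3 rose and 2 fell with AOM in *Pla2g3*+/+. The type II receptor *Bmpr2* read 0.232, 0.245, 0.741 and 0.497 and rose with AOM in both genotypes (1.67 and 1.02). The endothelial co-receptor *Eng* read 0.254, 0.300, 0.776 and 0.207 and rose in *Pla2g3*+/+ (1.61), with -0.54 on the arrays labelled *Pla2g3*-/-. The co-receptor *Rgmb* read 1.52, 1.07, 0.295 and 1.23 and fell in *Pla2g3*+/+ (-2.36), with 0.20 on the arrays labelled *Pla2g3*-/-.

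Of the 10 SMADs and their regulators in *Pla2g3*+/+, 2 rose with AOM and 0 fell, namely *Skil*, a corepressor of SMADs, at 1.41, and *Smad9*, a receptor-activated SMAD, at 1.40. On the arrays labelled *Pla2g3*-/- none passed 2-fold. All 10 had a ratio above 0 there, with a range from 0.34 to 0.96, and that of *Ski* (0.72) is a bound. Their median was 0.66, beside -0.08 over all genes. The share of all genes above 0 was not counted. *Tob1*, an antiproliferative protein that represses BMP SMADs, was 2.35-fold higher on the array labelled *Pla2g3*-/- after AOM.

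Of 7 other target genes, 2 rose and 1 fell with AOM in *Pla2g3*+/+. *Id4*, a family member of *Id1*, read 0.628, 0.684, 0.0423 and 1.19 and fell 14.8-fold. *Msx1*, a homeobox gene induced by BMPs in many tissues, read 0.0780, 0.0663, 0.358 and 0.0718 and rose 4.59-fold. *Hey1*, which also responds to Notch, read 0.210, 0.213, 0.773 and 0.326 and rose 3.69-fold. None of the 7 passed 2-fold with AOM on the arrays labelled *Pla2g3*-/-.

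**Figure D3:**
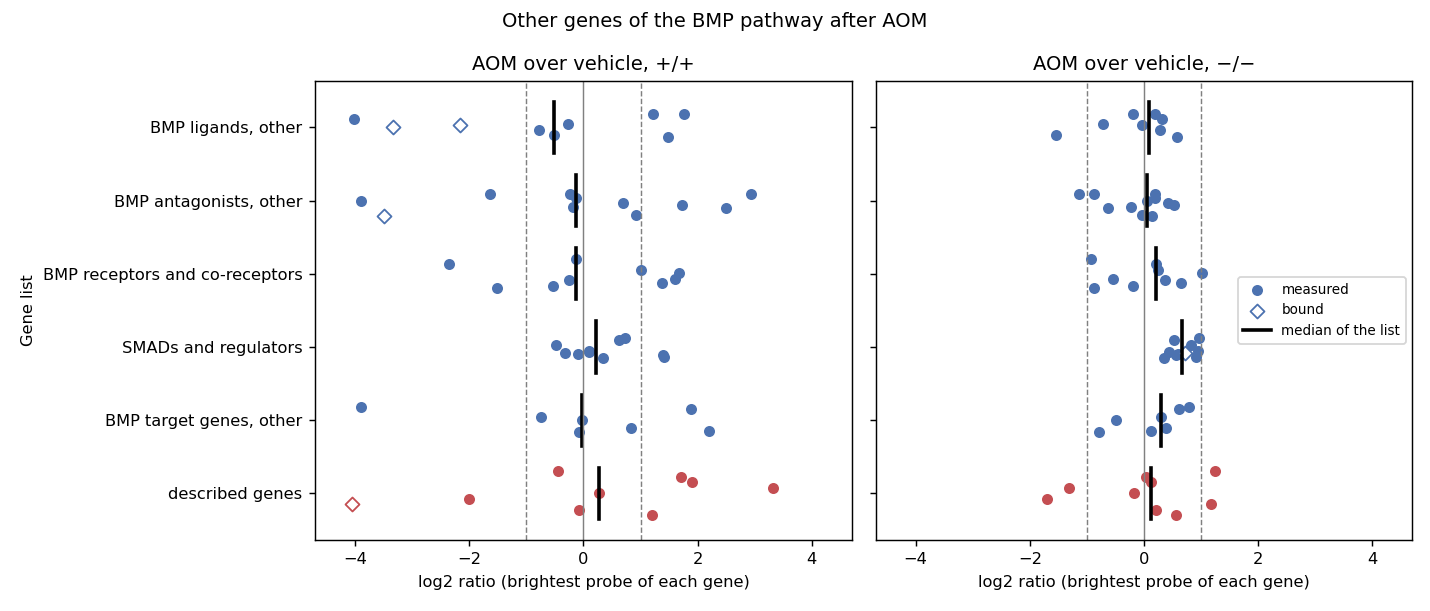
Log2 ratio of AOM to vehicle for the brightest probe of each pathway gene, in *Pla2g3*+/+ and on the arrays labelled *Pla2g3*-/-, by list, with the 9 described genes in red, bounds as open diamonds, the median of each list as a bar and 2-fold as dashed lines. Genes spread to both sides in *Pla2g3*+/+, where 13 of 46 other genes rose and 9 fell, and stay mostly within 2-fold on the arrays labelled *Pla2g3*-/-, where 1 of 45 rose and 2 fell.

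The remaining cell type lists were read as a check of the tissue. The 8 epithelial genes summed to 523, 535, 361 and 496 on the +/+ vehicle, -/- vehicle, +/+ AOM and -/- AOM arrays, and none was below background. The 10 fibroblast genes summed to 38.4, 43.9, 88.3 and 83.3, higher on both AOM arrays, with 5 and 3 of 10 past 2-fold in *Pla2g3*+/+ and on the arrays labelled *Pla2g3*-/-. *Dcn* alone gave 36.9 and 45.6 of the sums on the +/+ AOM and -/- AOM arrays. Between the genotypes after AOM, 2 of the 10 were higher and 3 lower on the array labelled *Pla2g3*-/-. The 8 endothelial genes summed to 6.73, 7.10, 5.51 and 4.14, with 4 higher and 1 lower and a median ratio of 1.1 in *Pla2g3*+/+. The lower sum on the +/+ AOM array came mostly from *Kdr* (5.12 with vehicle and 2.90 after AOM, short of 2-fold), opposite to most of the list. The 1 gene past 2-fold lower was *Cldn5* (0.790 with vehicle and 0.274 after AOM). The 8 leukocyte genes summed to 26.9, 23.9, 63.6 and 18.5, with 3 higher and 1 lower in *Pla2g3*+/+, and the neutrophil genes *S100a8* (10.0) and *S100a9* (35.7) made up most of the sum on the +/+ AOM array. Exocrine pancreas genes, of which 7 of 8 were on the array, summed to 0.372, 8.62, 0.164 and 0.182, with 7 of 7 higher on the array labelled *Pla2g3*-/- with vehicle. On that array their median ratio to the +/+ vehicle array was 4.86. On the +/+ vehicle, +/+ AOM and -/- AOM arrays, 1, 5 and 4 of the 7 were not above background. The 1 gene not above background on the +/+ vehicle array has a bound as its ratio between the genotypes. The part of any of these lists in the results for *Bmp4*, *Bmp5* and *Smad6* was not tested.

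**Figure D4:**
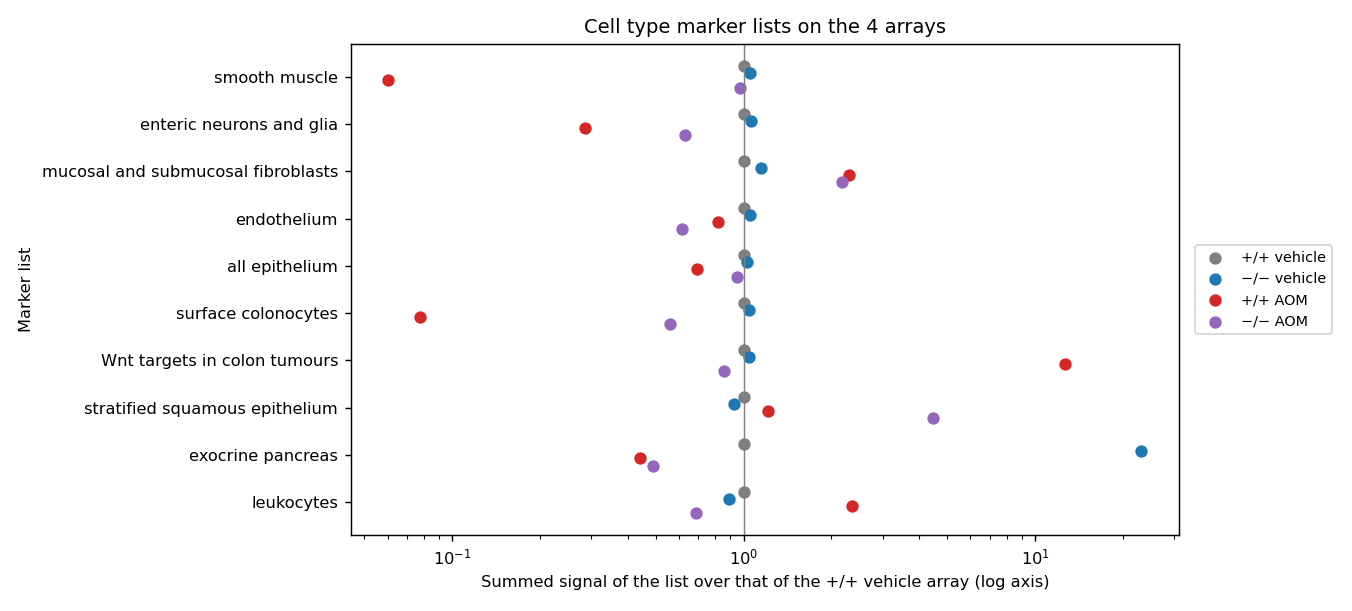
Summed level of each marker list on the 4 arrays, divided by that of the +/+ vehicle array, on a log axis with 1 point per array. Smooth muscle (31.7 against 526) and surface colonocyte genes (53.1 against 686) are low and Wnt targets (63.8 against 5.03) high on the +/+ AOM array, and exocrine pancreas genes are high (8.62 against 0.372) on the array labelled *Pla2g3*-/- with vehicle.

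Genes with the most similar course over the 4 arrays were found by the Euclidean distance of log2 levels centered on their mean, among 14735 genes above background on all arrays. The nearest to *Bmp7* were *Lgr5* (0.197), which is on the Wnt list, and *Tead2* (0.202), and only 15 genes lay within 0.5. For *Chrdl1*, read with its signal below background on the +/+ AOM array as it stands, they were *Maob* (0.387) and *Synm* (0.415), the latter on the smooth muscle list, and 3 genes lay within 0.5. *Bmp2* was nearest to *Acot6* (0.128) and *Mgat4a* (0.186), *Bmp4* to *Anxa6* (0.0639) and *Pald1* (0.122), and *Bmp5* to *Gdpd5* (0.0227) and *Slc25a45* (0.0645), with 298, 440 and 220 genes within 0.5. *Nog* was nearest to *Ltb4r2* (0.0842) and *Gal* (0.0988), with 263 genes. *Grem1*, *Id1* and *Smad6* had flat or common courses, nearest to *Pmm1* (0.0372), *Ap5z1* (0.0165) and *Zfp566* (0.0174), with 3204, 3378 and 1286 genes within 0.5. With 4 points per gene such distances describe a course and carry no test.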

How the data were processed

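Pooled colon RNA (27.7 ng per pool) from 4 groups was hybridized to 4 one-color (Cy3) Agilent whole mouse genome arrays on 1 slide. Groups follow the sample labels. The authors deposited, for each spot, an intensity computed by Feature Extraction 11.5.1.1, which per the file headers is background-subtracted and detrended within the array, with its signal error and a call of signal well above background. The authors also deposited a value table, which was checked here to be a ratio, that intensity divided by 1 constant per array (645.7, 649.9, 1309 and 1169) on a linear scale. No scaling between arrays other than this is given in the sources used here. Probe coordinates are those of the array files (mm9). Whether a probe lies in an exon or UTR was not analysed here.

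Control and outlier spots (104 to 139 per array) were left out, log2 intensities of repeated spots were averaged and the 75th percentile of the array was subtracted. Each described probe has 1 spot, and repeated spots of 399 other probes had a median SD between 0.0663 and 0.0786 on the log2 scale. On the 4 arrays 39423 probes had a value, of which 31270 carry the names of 22289 genes. A gene of a list was read by its brightest probe. Ratios of single arrays were called past 2-fold. A probe not above background on 1 array of a comparison was set to the higher of its own signal and the lowest intensity well above background there (10.7 to 17.1), and a probe below background on both got no ratio. No test, p-value or SD across mice was possible, and the number of arrays limits the precision. The scaling and the 2-fold call were tested on a simulated pair of arrays, and the bounds and the other steps were not. Python 3.11.15, numpy 2.4.6, pandas 2.3.3 and, for normexp, limma 3.58.1 in R 4.3.3 were used.

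The described genes, pathway lists and marker lists were chosen with earlier results of these data known. Named were all described genes, and of each pathway list up to 3 genes with the largest ratio past 2-fold after AOM that were above background on both arrays, of which 1 is not reported here. *Bmp10*, *Bmp15*, *Ski* and the genes below background on every array were named after their values were seen. Alternatives were quantile and median scaling, no scaling, normexp with an offset of 50, other filters on dim probes, the deposited table, 1.5-fold and 4-fold thresholds, and the brightest or the mean of the probes of a gene.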

Additional observations from a re-analysis of the deposited data

Results flagged for a closer look

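The response to AOM went in opposite directions on the arrays of the 2 genotypes for *Bmp7* and *Chrdl1*. For *Bmp7* the log2 ratio of AOM to vehicle was 3.32 in *Pla2g3*+/+ and -1.31 on the arrays labelled *Pla2g3*-/-. For *Chrdl1* it was -4.05 and 1.18 by probe 1, -1.77 and 1.5 by probe 2 and -1.71 and 2.08 by probe 3, where the values in *Pla2g3*+/+ are bounds. The difference between the genotypes was not tested, since each group is 1 array.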

How the results depend on the processing

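Of 302 ratios of single probes recomputed under 7 alternatives, 286 kept their side of 2-fold. Of the others, 13 dropped below 2-fold, 3 passed it and 0 reversed past it. Much of this was fixed in advance. Requiring both arrays above background left its 38 ratios unchanged, and dropping the filter on dim probes altered only bounds (44 kept). The deposited table and median scaling shift all ratios of a comparison alike and slightly (44 kept each). *Bmp2* between the genotypes after AOM, for example, read 1.029 and 1.071 there against 1.030. The other settings kept 44 (quantile normalization), 35 (no scaling) and 37 (normexp). Of the 286, 11 changed sign at values under 2-fold, namely of *Bmp2* and *Id1* with AOM in *Pla2g3*+/+, of *Grem1* with AOM on the arrays labelled *Pla2g3*-/-, and of *Bmp5* and *Id1* between the genotypes with vehicle. All of those that changed side came from leaving out the scaling (6 below, 3 past) or from normexp (7 below), and their values stand beside the genes. Without scaling the median of all probes was 0.86 and 0.76 for AOM over vehicle in *Pla2g3*+/+ and on the arrays labelled *Pla2g3*-/-, so changes with AOM hold relative to that shift.

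Counts of probes past the threshold moved by over 1.5 times as follows. Between the genotypes with vehicle, 1 probe was higher and 1 lower at 1.5-fold, against 0 at 2-fold. After AOM, 4 higher probes became 1 when both arrays had to be above background and 2 by the brightest probe or the mean over probes, and 3 lower became 1 at 4-fold. With AOM in *Pla2g3*+/+, 4 that rose became 1 at 4-fold, and 4 that fell became 1 without scaling, 1 when both arrays had to be above background and 2 with normexp, at 4-fold, by the brightest probe and by the mean. On the arrays labelled *Pla2g3*-/-, 4 that rose became 1 with normexp and at 4-fold and 2 by the brightest probe and by the mean, and 2 that fell became 0 without scaling and at 4-fold. *Chrdl1* gives 3 of the probes that the counts by gene merge. No paired analysis was possible because each group has 1 array, and no replicate could be left out. A probe under the lowest signal above background has only a bound.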
